A study of Mus musculus with 6 samples.

Results

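The 10 genes examined here are *Mfn1*, *Mfn2*, *Opa1*, *Oma1*, *Yme1l1*, *Dnm1l*, *Fis1*, *Mff*, *Mief1* and *Mtfr1*, which encode proteins that join, divide and shape mitochondria. They were taken by gene symbol from a table of 16448 genes, and all 10 were found and passed the filter on low values. RNA-seq was performed on cardiomyocytes (CMs) isolated from adult C57BL/6 mice aged 8 to 12 weeks, with 3 CtrlCre and 3 Cpt1bcKO samples. Cpt1bcKO mice carried loxP-flanked alleles of *Cpt1b*, the muscle isoform of the enzyme that passes long-chain fatty acids on for oxidation in mitochondria, together with the αMHC-Cre transgene. CtrlCre mice carried the same transgene and no floxed *Cpt1b*, so both groups expressed Cre recombinase from the promoter of the cardiac myosin gene *Myh6*. In this model recombination begins before birth, and cells other than CMs in a preparation keep intact *Cpt1b*. The study describes its groups for gene expression as mice, but the labels do not tie each sample to an animal, so the P values measure the spread between these samples.

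Mitochondria of a cell form a population that constantly fuses and divides. Fusion of the outer membrane is driven by the mitofusins MFN1 and MFN2 and that of the inner membrane by OPA1, which also holds the folds of the inner membrane (cristae) in shape and is cut by the proteases OMA1 and YME1L1. Division is carried out by the GTPase DRP1, the product of *Dnm1l*, which is recruited from the cytosol by outer membrane receptors such as MFF and MID51, the product of *Mief1*. In adult CMs the organelles lie in tightly packed rows between the myofibrils, and loss of mitofusins or of DRP1 from the heart is known to cause cardiomyopathy.

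None of the 10 genes passed the test between Cpt1bcKO and CtrlCre CMs after adjustment for all genes tested. The largest differences were those of *Mff*, the DRP1 receptor (log2 fold change −0.40, standard error (SE) 0.181, n = 3 per group, adjusted P = 0.358 in limma with Benjamini–Hochberg adjustment), and of *Mfn1* (−0.35, SE 0.162, adjusted P = 0.365 in the same test). Of the 11364 genes tested, 178 passed an adjusted P value of 0.05, which is 1.57%. At an unadjusted P value below 0.05, 1 of the 10 genes was called (*Mff*, lower in Cpt1bcKO CMs), against 1578 or 13.9% of all genes. The 95% confidence intervals of the 10 log2 fold changes reached from −0.80 to 0.59 at their outermost, so that a doubling or halving lay outside each of them. The interval stayed within −1 to 1 for 61.0% of all genes tested. All 10 genes ranked at the 61.10 percentile of level or above, and they were not compared with genes of like level. Fold changes refer to the log2(value + 1) scale throughout and are given as Cpt1bcKO against CtrlCre.

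The deposited values are normalised read counts, that is, counts divided by a size factor per sample and rounded to whole numbers by the authors. They summed to between 13393411 and 31722217 per sample, of which the mitochondrial rRNA gene *mt-Rnr2* made up 63.2% to 64.6% in CtrlCre and 61.8%, 72.6% and 80.8% in Cpt1bcKO samples 1, 2 and 3. With mitochondrially encoded and rRNA genes set aside, 3146414 to 3551692 remained per sample. Where the spacing of low values allowed an estimate (5 of 6 samples), 14900000 to 24500000 reads had been counted on genes and a single read was worth 0.682 to 1.295 normalised counts, so that the lowest of the members' values, 92, rests on many reads. The targeted gene *Cpt1b* had 1861, 893 and 1443 normalised counts in CtrlCre and 211, 353 and 285 in Cpt1bcKO samples and fell (log2 fold change −2.27, SE 0.267, adjusted P = 0.00338 in limma, and 0.0563 with 1 prior variance for all genes, the single alternative of 15 in which the call was lost). *Xist*, which is transcribed from the inactive X chromosome of females, had 957 and 1080 normalised counts in replicate 1 of CtrlCre and Cpt1bcKO and 23 to 78 in the other 4 samples, so each group held 1 sample with high *Xist*.

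Summed levels of CM, fibroblast and atrial markers did not overlap between the groups, whereas those of endothelial, leukocyte and smooth muscle markers did; no sum was tested. The 6 CM markers (*Myh6*, *Tnnt2*, *Actc1*, *Tnni3*, *Ryr2* and *Myl2*) were abundant in every sample, with summed levels of 211015 to 267229 normalised counts in CtrlCre and 159075 to 188812 in Cpt1bcKO samples, and 0 of 6 passed the adjusted test. All 6 had log2 fold changes below 0 (median −0.44), with 1 of 6 at an unadjusted P value below 0.05 in limma (13.9% of all genes) and 3 of 6 without overlap (18.7% of all genes). The 6 fibroblast markers summed to 443 to 685 in CtrlCre and 936 to 1121 in Cpt1bcKO samples. Of the 5 fibroblast markers tested, all 5 were higher in Cpt1bcKO CMs at an unadjusted P value below 0.05 in limma (median log2 fold change 1.11), 4 of 5 did not overlap and *Col1a1* passed adjustment (adjusted P = 0.0143, limma), whereas *Tcf21* was too low to be tested. Summed endothelial markers reached 1152 to 2403 and 2091 to 2424, leukocyte markers 78 to 110 and 94 to 108, and smooth muscle and pericyte markers 1052 to 2175 and 1121 to 1669 in the 2 groups in the same order, with *Tagln* and *Cnn1* at 13 or less in every sample. Of the 4 smooth muscle and pericyte markers tested, 3 had log2 fold changes above 0 and 1 below, and *Acta2* was lower without overlap (526, 244 and 391 normalised counts in CtrlCre, 230, 134 and 132 in Cpt1bcKO samples, log2 fold change −1.20, adjusted P = 0.0835 in limma). All 6 endothelial markers had log2 fold changes above 0 (median 0.33), with 1 of 6 below an unadjusted P value of 0.05 and 0 of 6 past adjustment in limma. Of 4 atrial markers, the 3 with a row in the table (*Myl7*, *Myl4* and *Nppa*) summed to 146 to 265 and 477 to 720, with *Myl7* at 19 or less and *Nppa*, which is also induced in stressed ventricles, accounting for most of it. *Nppa* rose (log2 fold change 1.87, adjusted P = 0.00917 in limma), whereas *Myl7* and *Myl4* overlapped between the groups. The part of these shifts in the results that follow was not tested, and in bulk RNA fewer cells of a type and less RNA per cell cannot be told apart.

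Promoter sequences are shown to give the RNA levels their genomic context. They were available from RefSeq for 9 of the 10 genes (GRCm38.p6), and *Mtfr1* was not among them. The 120 bases before the start site are given for *Mfn1* and *Mff*, which had the lowest log2 fold changes, and for *Opa1*, which held a palindromic match, each 5′ to 3′ on the strand of its gene, with matches to the motifs searched in capitals.
Mfn1 (chr3:32529362-32529481, plus strand): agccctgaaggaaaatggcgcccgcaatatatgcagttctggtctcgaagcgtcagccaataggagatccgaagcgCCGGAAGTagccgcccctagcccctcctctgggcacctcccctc
Mff (chr1:82724770-82724889, plus strand): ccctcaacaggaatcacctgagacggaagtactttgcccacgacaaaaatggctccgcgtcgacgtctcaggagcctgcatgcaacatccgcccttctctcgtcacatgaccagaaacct
Opa1 (chr16:29579214-29579333, plus strand): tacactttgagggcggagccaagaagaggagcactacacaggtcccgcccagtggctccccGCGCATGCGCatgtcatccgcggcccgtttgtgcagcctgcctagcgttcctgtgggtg
Windows of 300 bases (250 before to 50 after the start) were searched on both strands for the half-site of oestrogen-related receptors (AAGGTCA), the core of the NRF1 site (GCATGCGC), the cyclic AMP response element (TGACGTCA), the ETS core (CCGGAAGT) and the E-box (CACGTG). The ETS core, bound by factors such as GABP, was found in 3 of 9 windows, 44 bases before the start of *Mfn1*, 18 bases before that of *Fis1* and 65 bases before that of *Mief1*, which had a further match 11 bases after its start, and it was present in 4.0% of 27025 RefSeq promoters. The NRF1 core was found in 1 of 9 windows, that of *Opa1*, on both strands in overlapping positions 57 and 59 bases before the start, and in 2.80% of all promoters. *Mff* held none of the motifs. The receptor half-site, the cyclic AMP response element and the E-box were found in 0 of 9 windows and in 4.66%, 1.88% and 7.24% of all promoters. A match of letters is not evidence of binding, and the absence of one says only that these letters were not in this window.

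Levels were first compared between the genes per kilobase of exon, where the length was that of all annotated exons of a gene merged. In CtrlCre CMs *Mfn2* was the highest with 830.0 ± 69.5 normalised counts per kilobase (SD, n = 3), followed by *Mfn1* with 449 ± 45.5 and *Opa1* with 242 ± 20.1. The 3 fusion GTPases thus headed the order, and their ranges over samples did not overlap with each other or with the next gene. Below them came *Dnm1l* with 106 ± 10.3 and then *Fis1* with 76.4 ± 9.75. *Yme1l1* (58.3 ± 4.28), *Oma1* (53.0 ± 9.39) and *Mtfr1* (51.5 ± 4.02) followed, and the ranges of these 3 genes all overlapped with each other. *Mff* (39.3 ± 5.06) and *Mief1* (12.7 ± 1.17) had the lowest means, and the range of *Oma1* reached into that of *Mff*. The merged length was 9.757 kilobases for *Mff* and 8.106 for *Mief1* but 1.714 for *Fis1*, so the order of the lower genes depends on the annotation. Without division by length, the CtrlCre mean of *Mff* (383) exceeded those of *Mtfr1* (225), *Fis1* (131) and *Oma1* (114). In total normalised counts, *Mfn2*, *Mfn1* and *Opa1* ranked at the 99.31, 98.64 and 98.08 percentile of all genes tested and *Mief1* at the 61.10 percentile.

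**Figure D1:**
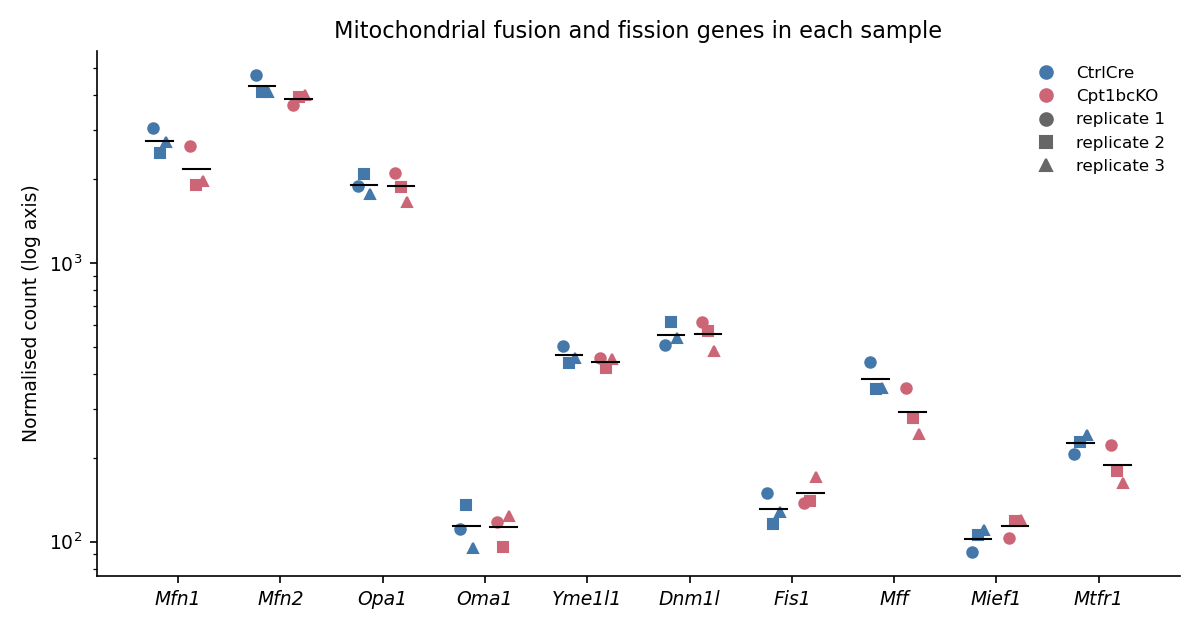
Normalised counts (log axis) of the 10 genes in the 3 CtrlCre (blue) and 3 Cpt1bcKO (red) samples, with the replicate number shown by the symbol and the mean of each group by a bar. The groups overlap in 9 genes and lie apart in *Mfn2*. Replicate 1 of Cpt1bcKO is the highest of its group in *Mfn1*, *Opa1*, *Yme1l1*, *Dnm1l*, *Mff* and *Mtfr1*.

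*Mfn1* (chr3:32529465-32579239, plus strand, GRCm38 as in the deposited table) encodes the mitofusin with the stronger tethering activity. It had 3033, 2479 and 2717 normalised counts in CtrlCre samples 1, 2 and 3 and 2621, 1902 and 1961 in Cpt1bcKO samples 1, 2 and 3. Cpt1bcKO samples 2 and 3 lay below every control, but Cpt1bcKO sample 1 lay above CtrlCre sample 2, so the groups overlapped. Its log2 fold change of −0.35 had a 95% confidence interval of −0.71 to 0.0049 (unadjusted P = 0.0526, limma).

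*Mfn2* (chr4:147873599-147904704, minus strand) encodes the mitofusin that also tethers mitochondria to the endoplasmic and sarcoplasmic reticulum. Its values were 4728, 4105 and 4100 normalised counts in CtrlCre and 3677, 3940 and 3991 in Cpt1bcKO samples. All 3 Cpt1bcKO samples lay below all 3 controls, which made *Mfn2* the single member without overlap between groups, whereas 2129 or 18.7% of all genes tested did not overlap. The gap between the lowest control and the highest Cpt1bcKO sample was smaller than the SD of either group (361 and 169 normalised counts). The log2 fold change was −0.15 (SE 0.135, interval −0.45 to 0.15) and did not pass the test (adjusted P = 0.663, limma). With scaling to the total without mitochondrially encoded and rRNA genes it was −0.042, beside a median of 0.11 over all genes. Under that scaling the groups overlapped in *Mfn2*.

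*Opa1* (chr16:29579334-29654884, plus strand), the inner membrane fusion GTPase, had 1890, 2075 and 1760 normalised counts in CtrlCre and 2105, 1877 and 1651 in Cpt1bcKO samples. The highest and the lowest of the 6 values were both from Cpt1bcKO samples. The log2 fold change of −0.027 (interval −0.35 to 0.29) changed sign under 2 of 3 other scalings, to 0.085 and 0.018, but these moved the median of all genes to 0.11 and 0.043, so *Opa1* stayed below that median. RNA counts per gene do not show how OPA1 is spliced or cut.

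The 2 proteases that cut OPA1 were measured at lower counts. *Oma1* (chr4:103313812-103366443, plus strand), which is activated when the membrane potential of mitochondria is lost, had 111, 135 and 95 normalised counts in CtrlCre and 118, 96 and 124 in Cpt1bcKO samples. *Yme1l1* (chr2:23156369-23199260, plus strand), the ATP-dependent protease that cuts OPA1 under basal conditions, had 505, 439 and 456 in CtrlCre and 457, 418 and 452 in Cpt1bcKO samples. Both genes overlapped between groups, and the controls of *Oma1* spanned the Cpt1bcKO values on both sides. The log2 fold changes were −0.0064 (SE 0.203, interval −0.46 to 0.44) for *Oma1* and −0.076 (SE 0.139, interval −0.38 to 0.23) for *Yme1l1*, and both turned positive when values were scaled to the total without mitochondrially encoded and rRNA genes (0.10 and 0.036), which moved the median of all genes to 0.11, above both.

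On the side of fission, *Dnm1l* (chr16:16312235-16359030, minus strand) had 506, 611 and 539 normalised counts in CtrlCre and 613, 568 and 483 in Cpt1bcKO samples. The means of the groups were 552 ± 53.7 and 555 ± 66.0 (SD, n = 3), and the samples of both groups were interleaved. The log2 fold change was 0.0044 (SE 0.152), with an interval of −0.33 to 0.34, and was −0.0058 with recomputed median-of-ratios factors.

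The genes of outer membrane proteins that act with DRP1 had mean differences in both directions. *Mff* (chr1:82724890-82752394, plus strand), the main receptor for DRP1 in mammalian cells, had 440, 353 and 356 normalised counts in CtrlCre and 355, 277 and 243 in Cpt1bcKO samples. Cpt1bcKO samples 2 and 3 lay below all controls, while Cpt1bcKO sample 1 lay between the 2 lower controls. Its 95% confidence interval of −0.80 to −0.0014 ended just short of 0 (unadjusted P = 0.0493, limma). *Fis1* (chr5:136953275-136966234, plus strand), a tail-anchored protein of the outer membrane, had 149, 116 and 128 normalised counts in CtrlCre and 138, 140 and 170 in Cpt1bcKO samples. CtrlCre sample 1 exceeded all but the highest Cpt1bcKO sample, and the log2 fold change was 0.19 (SE 0.182, interval −0.22 to 0.59). *Mief1* (chr15:80234080-80253366, plus strand), which encodes the receptor MID51, had 92, 106 and 110 normalised counts in CtrlCre and 103, 119 and 120 in Cpt1bcKO samples. The lowest Cpt1bcKO sample lay below both upper controls, and the log2 fold change was 0.15 (SE 0.181, interval −0.25 to 0.55). *Mtfr1* (chr3:19187329-19220817, plus strand), a regulator named for its effect on fission, had 207, 227 and 242 normalised counts in CtrlCre and 222, 180 and 162 in Cpt1bcKO samples. Its Cpt1bcKO samples 2 and 3 lay below all controls and Cpt1bcKO sample 1 lay among them, with a log2 fold change of −0.27 (SE 0.174, interval −0.65 to 0.12).

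**Figure D2:**
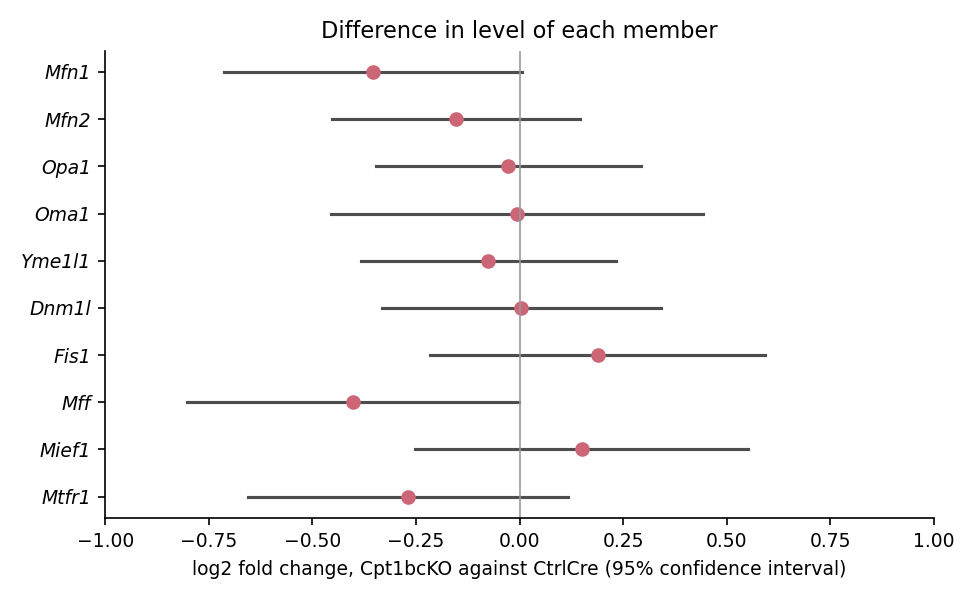
Log2 fold change of each gene in Cpt1bcKO against CtrlCre CMs (point) with its 95% confidence interval from limma (line), n = 3 per group. The interval of *Mff* ends at −0.0014 and those of the other 9 genes include 0.

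In sum over the 10 genes, normalised counts were 11661, 10646 and 10503 in CtrlCre and 10409, 9517 and 9357 in Cpt1bcKO samples. Every Cpt1bcKO sample thus lay below every control, although the sum is dominated by *Mfn2*, *Mfn1* and *Opa1*. As a share of all normalised counts outside mitochondrially encoded and rRNA genes, the sums were 0.328%, 0.307% and 0.305% in CtrlCre and 0.331%, 0.296% and 0.282% in Cpt1bcKO samples, and Cpt1bcKO sample 1 was the highest of all 6. With each gene weighted equally, the mean log2 difference from the control mean was 0.0025, −0.15 and −0.14 in Cpt1bcKO samples 1, 2 and 3, against 0.038, 0.0029 and −0.041 in the controls. By their fold changes 7 of the 10 genes were lower and 3 higher in Cpt1bcKO CMs, a split that became 4 and 6 with scaling to the total without mitochondrially encoded and rRNA genes, 5 and 5 with the upper quartile and 8 and 2 with median-of-ratios factors. The median was −0.051 on the log2 scale, beside −0.0013 over all genes tested, and the first of these scalings moved it to 0.060 and that of all genes to 0.11, with 7009 genes higher and 4355 lower instead of 5655 and 5709. Sign counts under that scaling, here and in the lists below, carry this shift of all genes. The median size of the log2 fold change, sign aside, was 0.152 for the 10 genes and 0.251 for all genes, and the median SE was 0.168 and 0.256. These figures for all genes include many of lower level than the 10, and genes of like level were not compared.

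In *Mfn1*, *Mff* and *Mtfr1*, Cpt1bcKO samples 2 and 3 lay below all controls and Cpt1bcKO sample 1 did not, and the log2 fold changes depended on single samples. CtrlCre sample 1, which also had high *Xist* (957 normalised counts), was the highest control in *Mfn1* (3033) and *Mff* (440) and the lowest in *Mtfr1* (207). Cpt1bcKO sample 1 had *mt-Rnr2* at 61.8%, near the controls, and high *Xist* (1080 normalised counts). Cpt1bcKO samples 2 and 3 had *mt-Rnr2* at 72.6% and 80.8% and *Xist* at 34 and 78. The part of these features in the pattern was not tested. Without Cpt1bcKO sample 1, the log2 fold changes were −0.50 for *Mfn1*, −0.55 for *Mff* and −0.40 for *Mtfr1*, and 3 of the 10 genes passed an unadjusted P value of 0.05 in limma, beside 19.9% of all genes in that fit. Their adjusted P values were then 0.0927, 0.116 and 0.250 (limma with Benjamini–Hochberg adjustment), so none passed adjustment. In that comparison of 3 against 2 samples, 5 of the 10 genes did not overlap between groups, beside 37.4% of all genes. When Cpt1bcKO sample 2 or 3 or any of the controls was left out instead, 0 of the 10 genes passed an unadjusted P value of 0.05. Over all genes 8.86% to 12.2% passed it in those fits. The log2 fold changes of *Mfn1*, *Mff* and *Mtfr1* were −0.28, −0.30 and −0.33 without CtrlCre sample 1. Without Cpt1bcKO sample 3 they were −0.29, −0.28 and −0.17.

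**Figure D3:**
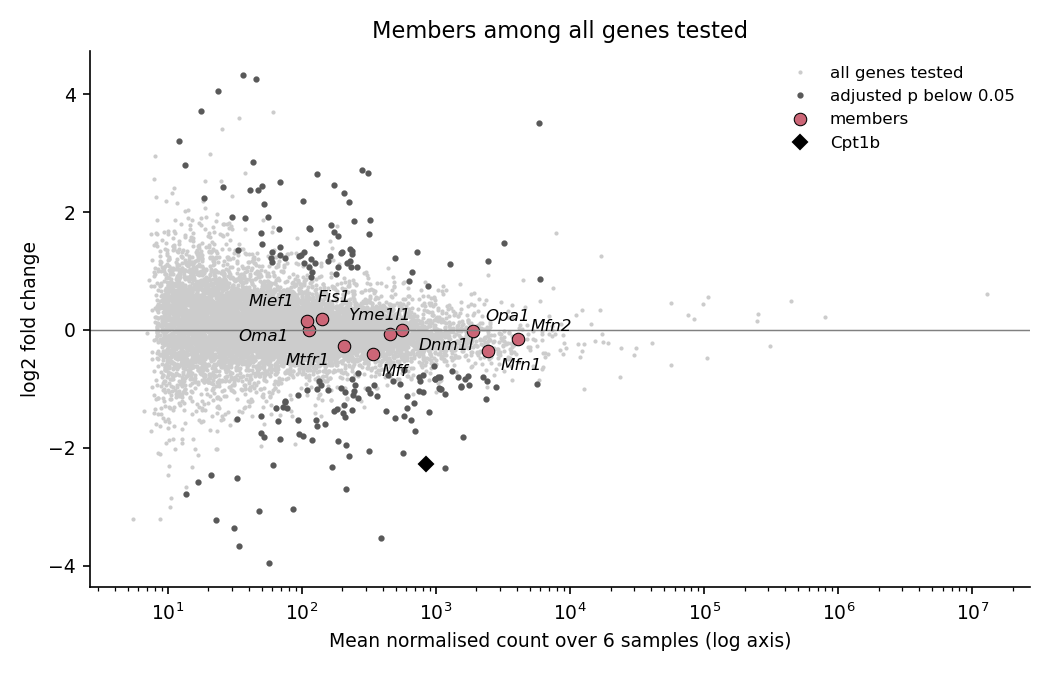
Log2 fold change of all 11364 genes tested against their mean normalised count over 6 samples (log axis), with genes past an adjusted P value of 0.05 in dark grey, the 10 members in red and *Cpt1b* as a black diamond. The members lie between −0.40 and 0.19, within the cloud of genes of similar level, and *Cpt1b* lies at −2.27.

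Ratios between members were computed inside each sample on the log2(value + 1) scale, where the size factor cancels out apart from the effect of the added 1. The *Mfn1* to *Mfn2* ratio was −0.64, −0.73 and −0.59 in CtrlCre and −0.49, −1.05 and −1.02 in Cpt1bcKO samples. Cpt1bcKO samples 2 and 3 had the lowest ratios and Cpt1bcKO sample 1 the highest, and the difference of the means was −0.20 (exact two-sided permutation P = 0.4, where 0.1 is the smallest that 3 against 3 samples allow). This difference was −0.38 without Cpt1bcKO sample 1 and −0.10 without Cpt1bcKO sample 2. The *Mff* to *Dnm1l* ratio, of receptor to GTPase, was −0.20, −0.79 and −0.60 in CtrlCre and −0.79, −1.03 and −0.99 in Cpt1bcKO samples. Here 2 Cpt1bcKO samples were below all controls and the third lay just above the lowest control, with a difference of −0.41 (exact permutation P = 0.2) that was −0.24 without CtrlCre sample 1. The *Oma1* to *Yme1l1* ratio of the proteases differed by 0.069 (exact permutation P = 0.8), the *Mief1* to *Fis1* ratio by −0.038 (exact permutation P = 0.8) and the *Opa1* to *Oma1* ratio by −0.021 (exact permutation P = 0.9), all with overlapping groups. These 5 P values are not adjusted, and none could have gone below 0.1. The mean log2 level of the 3 fusion GTPases minus that of the 5 fission genes was 3.71, 3.60 and 3.54 in CtrlCre and 3.54, 3.47 and 3.49 in Cpt1bcKO samples, a difference of −0.11 with Cpt1bcKO sample 1 just above CtrlCre sample 3.

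**Figure D4:**
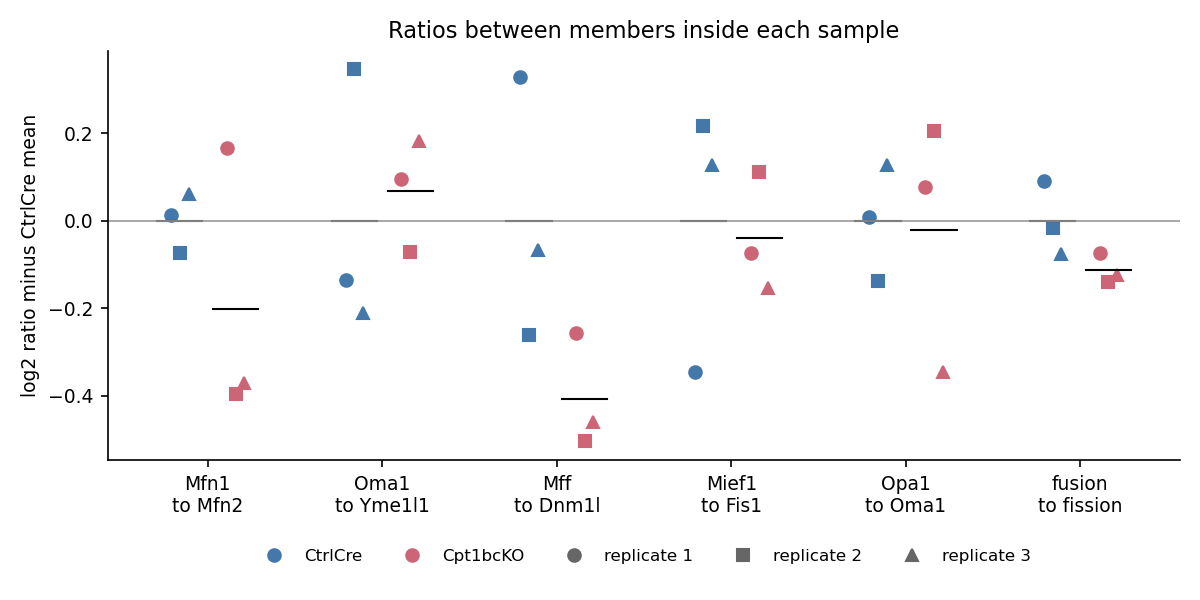
Log2 ratios between members in each sample, drawn as the difference from the CtrlCre mean of that ratio, for CtrlCre (blue) and Cpt1bcKO (red) samples, with replicate numbers as symbols and group means as bars. The groups overlap in all 6 ratios, and the mean differences reach from −0.41 for *Mff* to *Dnm1l* to 0.069 for *Oma1* to *Yme1l1*.

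Other genes of mitochondrial shape were then examined as 5 lists of 60 genes in all, of which 57 could be tested. After adjustment 1 of the 57 passed, *Pink1*, beside 1.57% of all genes. At an unadjusted P value below 0.05 there were 5 higher and 2 lower in Cpt1bcKO CMs, 12.3% of the 57 beside 13.9% of all genes. The groups did not overlap in 10 of the 57 (17.5%, beside 18.7% of all genes), so the unadjusted and the no-overlap share were near the background. The genes named below were selected for their low unadjusted P values. Of the 57 genes 30 were higher and 27 lower by their log2 fold changes, with a median of 0.0054 on the log2 scale.

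*Pink1*, a kinase that accumulates on damaged mitochondria and marks them for removal by mitophagy, had 1384, 1194 and 1332 normalised counts in CtrlCre and 903, 693 and 674 in Cpt1bcKO samples. All 3 Cpt1bcKO samples were far below all controls. *Pink1* fell by 0.79 on the log2 scale (SE 0.154, interval −1.14 to −0.45, adjusted P = 0.0331 in limma). The call was lost when CtrlCre sample 1, 2 or 3 was left out (adjusted P = 0.107, 0.0860 and 0.135 in limma), without Cpt1bcKO sample 2 or 3 (0.187 and 0.0958), with scaling to the total without mitochondrially encoded and rRNA genes (0.0752) and with 1 prior variance for all genes (0.156). Over the 15 alternatives its log2 fold change stayed between −0.93 and −0.68. It belonged to a list of 11 genes of mitochondrial transport and quality control, of which 7 were lower and 4 higher by their log2 fold changes (median −0.048), or 4 and 7 with the scaling without mitochondrially encoded and rRNA genes.

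Among the 12 fission regulators tested of 14 listed (*Mtfr2* and *Gdap1* were not), 10 had log2 fold changes above 0 and 2 below, with a median of 0.24. The list was not split by whether a gene promotes or restrains division, so these counts give no direction for division itself. *Pgam5*, counted among the 10 and named here after its values were seen, had the same mean in both groups (15.3 normalised counts). None passed adjustment, and 2 passed an unadjusted P value of 0.05. *Spire1*, an actin nucleator of which 1 isoform sits on mitochondria and promotes their division, had 26, 34 and 37 normalised counts in CtrlCre and 57, 100 and 82 in Cpt1bcKO samples. Its values did not overlap between groups, and its log2 fold change of 1.25 (SE 0.273) did not pass adjustment (adjusted P = 0.0541, limma). It passed in 4 of the 15 alternatives, among them the scaling without mitochondrially encoded and rRNA genes, under which *Spire1* and not *Pink1* was called (adjusted P = 0.0380, limma), and the fit without Cpt1bcKO sample 1 (0.0224), and over the 15 its adjusted P value ranged from 0.0120 to 0.279. *Higd1a*, a small inner membrane protein induced by hypoxia, had 128, 120 and 106 normalised counts in CtrlCre and 160, 143 and 184 in Cpt1bcKO samples, again without overlap (log2 fold change 0.45, adjusted P = 0.286, limma).

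Of the 7 fusion regulators tested of 8 listed (*Pld6* was not), 4 were higher and 3 lower by their log2 fold changes (median 0.066), or 5 and 2 with the scaling without mitochondrially encoded and rRNA genes. *Miga2*, an outer membrane protein that promotes fusion, was the single gene below an unadjusted P value of 0.05 here. It had 132, 125 and 144 normalised counts in CtrlCre and 182, 208 and 166 in Cpt1bcKO samples, without overlap (log2 fold change 0.46, adjusted P = 0.250, limma).

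The 13 genes of the MICOS complex and cristae, which fold the inner membrane, comprised 10 with log2 fold changes below 0 and 3 above (median −0.098), or 6 and 7 with the scaling without mitochondrially encoded and rRNA genes, where their median of 0.013 was still below the 0.11 of all genes. *Mtx1*, a subunit of the outer membrane machinery linked to MICOS, was the single gene below an unadjusted P value of 0.05 and had 44, 35 and 25 normalised counts in CtrlCre and 21, 18 and 18 in Cpt1bcKO samples. The groups did not overlap, but the counts were low (log2 fold change −0.80, adjusted P = 0.277, limma), and *Mtx1* overlaps *Thbs3* on the opposite strand.

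Among 14 inner membrane proteases and scaffolds, 9 were higher and 5 lower by their log2 fold changes (median 0.049). *Afg3l2*, a subunit of the matrix-facing AAA protease, had 882, 760 and 667 normalised counts in CtrlCre and 1018, 964 and 1092 in Cpt1bcKO samples. *Lonp1*, the main protease of the matrix, had 580, 489 and 468 in CtrlCre and 597, 720 and 723 in Cpt1bcKO samples. In both genes each Cpt1bcKO sample exceeded each control, with log2 fold changes of 0.42 and 0.41 (adjusted P = 0.228 and 0.255, limma).

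**Figure D5:**
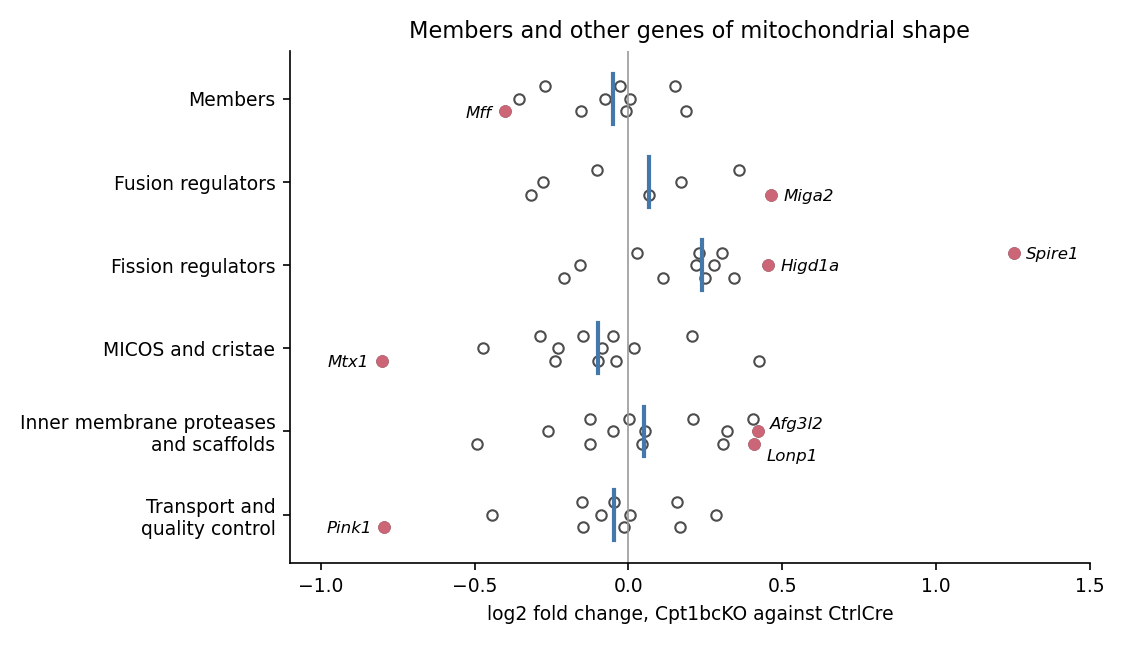
Log2 fold changes in Cpt1bcKO against CtrlCre CMs of the 10 members and of the 5 lists of other genes of mitochondrial shape, 1 point per gene, with the median of each list as a blue bar. Filled points have an unadjusted P value below 0.05 in limma, and *Pink1* lies at −0.79 and *Spire1* at 1.25.

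Some members share sequence with annotated neighbours. *Mff* contains the sense intronic gene *Gm28941*, with a mean of 6.0 normalised counts beside 337 for *Mff*, and overlaps *C430014B12Rik* on the opposite strand. *Mfn2* overlaps the pseudogene *Gm13156* on the opposite strand (mean 2.17 beside 4090), and *Dnm1l* overlaps the antisense gene *Gm49521*, which has no row in the table used here. *Mief1* overlaps another protein-coding model on its own strand, which also has no row there. Reads shared by genes were left out by the authors, and whether *Mief1* lost reads in this way is not known, so its counts are less certain.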

How the data were processed

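RNA-seq of adult cardiomyocytes from 3 CtrlCre and 3 Cpt1bcKO samples was examined. The authors made stranded libraries from total RNA, trimmed reads with Trimmomatic (0.36 in the submitters' processing notes), aligned them to mm10 (GRCm38.p5) with STAR 2.5.4b and counted exon reads per gene with featureCounts 1.6.0, leaving out reads on several genes or regions. The strand setting and annotation release are not given in the sources used here. The deposited score of each gene and sample is this count divided by a size factor (DESeq2 1.14.1) and rounded to a whole number by the authors, so raw counts were not recovered. Columns with the authors' group means, fold changes and P values were not used.

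Values were transformed to log2(value + 1) and genes that reached 10 in 3 or more samples were tested with limma 3.58.1 in R 4.3.3 (lmFit, eBayes with trend, two-sided, genotype only), with Benjamini–Hochberg adjustment over all 11364 genes. Ratios inside samples were compared with exact permutation tests. Python 3.11.15 was used for tables and figures. The code of the fit was run on simulated data with known changes. These were drawn with the same dispersion for all genes and no difference in composition or replicate between samples. The run checks the code and does not show how the fit performs on the present data. Depth is not known for 1 sample, and the precision of low values is limited by the number of reads.

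The members and all gene lists were chosen with earlier results of these data known. Named genes are the 10 members, *Cpt1b* and, of each other list, every gene past adjustment and in each direction the 2 with the smallest unadjusted P value below 0.05. Level per kilobase was computed over the merged exons of all transcripts in the GENCODE vM21 annotation. The deposited coordinates of *Oma1*, *Dnm1l*, *Mief1* and *Mtfr1* differ from those in vM21. Alternatives were 3 other scalings, 2 other filters, pseudocounts of 0.5 and 5, 1 prior variance for all genes, a replicate block and leaving out each sample.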

Additional observations from a re-analysis of the deposited data

How the results depend on the processing

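No member passed an adjusted P value of 0.05 in limma under any of the 15 alternatives. The number past an unadjusted P value of 0.05, 1 in the report, was 2 with recomputed median-of-ratios factors (13.9% of all genes), with no filter (12%) and with the replicate block (20.8%), 0 with scaling to the upper quartile, with scaling to the total without mitochondrially encoded and rRNA genes and with 1 prior variance (13% to 15.2%), and 0 to 3 when 1 sample was left out (8.86% to 19.9%). Members without overlap, 1 in the report, were 2 with the scaling without mitochondrially encoded and rRNA genes (20.9% of all genes) and 1 to 5 when 1 sample was left out (24.8% to 37.4%). The 2 with that scaling were *Fis1* and *Mief1*, both higher in Cpt1bcKO CMs (log2 fold changes 0.30 and 0.26), and *Mfn2* was not among them. The members' median log2 fold change went from −0.051 to 0.060 under that scaling, which moved the median over all genes to 0.11, and to −0.0062 with the upper quartile, and ranged from −0.11 to −0.033 when 1 sample was left out.

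Signs turned for *Opa1* (0.085 without mitochondrially encoded and rRNA genes, 0.018 with the upper quartile, −0.11 to 0.062 with 1 sample left out), *Oma1* (0.10, 0.038 and −0.13 to 0.12 in the same order), *Yme1l1* (0.036 with the first of these) and *Dnm1l* (−0.0058 with median-of-ratios factors, −0.071 to 0.10 with 1 sample left out). With 1 sample left out, the difference in the *Mfn1* to *Mfn2* ratio ranged from −0.38 to −0.10, that in *Mff* to *Dnm1l* from −0.54 to −0.24, that in *Oma1* to *Yme1l1* from −0.036 to 0.24, that in *Mief1* to *Fis1* from −0.21 to 0.070, that in *Opa1* to *Oma1* from −0.13 to 0.14 and that of fusion to fission from −0.15 to −0.067. Causes were not tested.

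Of the other genes of mitochondrial shape 2 passed adjustment, *Pink1* and *Spire1*, with the replicate block and with a value of at least 10 required in every sample, 0 with 1 prior variance, and 0 to 2 with 1 sample left out. With scaling without mitochondrially encoded and rRNA genes the 1 call was *Spire1*. Over all genes the 178 calls became 41 with 1 prior variance, 603 with the replicate block and 42 to 329 with 1 sample left out, and the 1578 unadjusted calls became 2362 with the replicate block and 1007 to 2262 with 1 sample left out.

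Replicate numbers are shared by the groups, but the labels do not say what they stand for. Deviations of same-numbered samples from their group means correlated across genes with r = 0.38, 0.25 and 0.068 for numbers 1, 2 and 3. CtrlCre sample 3 correlated best with Cpt1bcKO sample 2 (0.12). Deviations from a mean of 3 samples depend on each other, so these correlations cannot decide whether the numbers mark pairs. The main fit used genotype only because the labels name no pairs. With the replicate block, unadjusted P values (limma) were 0.0060 for *Mfn1* and 0.0086 for *Mff*, where 20.8% of all genes were below 0.05. The adjusted P values (limma) were 0.0780 for *Mfn1* and 0.0940 for *Mff*.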
